A study of Homo sapiens with 4 samples.

Results

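The replication-dependent histone genes of chromosome 6 encode the core histones H2A, H2B, H3 and H4 and the linker histone H1, and the 52 genes described here lie between 26017032 and 27893891 of chromosome 6 (hg38). They were taken by a list of symbols, set by gene family and chromosome and not by a threshold on any measured value, from 19821 protein-coding genes on the autosomes and X. All 52 symbols were found in the RefSeq gene table, with 6 H1, 11 H2A, 14 H2B, 10 H3 and 11 H4 genes.

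The measurements are ChIP-seq peak lists from SK-Hep1, a human liver adenocarcinoma line. H3K27ac, the acetylation of lysine 27 of histone H3 found at active promoters and enhancers, was profiled in cells with an shRNA against SMARCB1 (shSMARCB1) and in cells with a control shRNA (shCon), and SMARCB1, a protein of the SWI/SNF complexes that slide and evict nucleosomes, was profiled in a further library whose shRNA the labels do not state. Cells carrying an shRNA were stable lines selected with puromycin, and the input that both H3K27ac lists were called against came from the control cells. With 1 library in each group there is no replicate error, and the conditions were compared by their values alone.

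The shSMARCB1 H3K27ac library held 10203310 tags in all and 34073 peaks, and the shCon library held 13235203 tags and 35307 peaks, on the autosomes and X. The SMARCB1 list held 4453 peaks, with no depth stated. Over all protein-coding genes, 69.7% carried an H3K27ac peak in shSMARCB1 and 70.9% in shCon, in the gene record or its 1 kb flanks. All 8 mesenchymal markers carried one in at least 1 of these libraries. The same held for 4 of 7 endothelial markers, with PECAM1 in shSMARCB1 only and KDR, TEK and TIE1 in neither. Of 9 hepatocyte markers, 3 carried a peak in at least 1 of these libraries, and ALB, APOA1, TTR and HNF4A carried none in either. Most defining hepatocyte genes were thus without the mark in this line.

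Replication-dependent histone genes are short, lack introns and are transcribed in S phase, when new DNA must be packed into nucleosomes. Their mRNAs end in a stem-loop bound by SLBP instead of a poly(A) tail, and NPAT drives their transcription at nuclear sites called histone locus bodies. Several H2A and H2B genes face away from each other and share the short stretch between their starts as a promoter. The H3 genes among them encode the very protein whose acetylated lysine was measured here.

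The promoters that the results turn on are shown first, from the RefSeq promoter table (GRCh38.p14). It held a start site for 47 of the 52 genes, and H2AC12, H3C11, H3C12, H4C1 and H4C3 had no entry. For H2A and H2B, the whole stretch between the starts of a divergent pair is given on the plus strand, for 2 pairs with H3K27ac in both libraries and 2 pairs with none. Capitals mark the octamer of H2B promoters, ATTTGCAT, the TATA box, TATAAA, and the box that is named by its own letters, CCAAT, each searched on both strands.
H2BC11/H2AC11, H3K27ac in both libraries, chr6:27132796-27133042: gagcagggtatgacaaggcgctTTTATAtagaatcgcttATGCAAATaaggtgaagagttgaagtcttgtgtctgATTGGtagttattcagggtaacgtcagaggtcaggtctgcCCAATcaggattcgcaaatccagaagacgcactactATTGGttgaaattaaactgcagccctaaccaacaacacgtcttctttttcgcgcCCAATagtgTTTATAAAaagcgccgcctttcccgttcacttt
H2BC4/H2AC6, H3K27ac in both libraries, chr6:26123927-26124171: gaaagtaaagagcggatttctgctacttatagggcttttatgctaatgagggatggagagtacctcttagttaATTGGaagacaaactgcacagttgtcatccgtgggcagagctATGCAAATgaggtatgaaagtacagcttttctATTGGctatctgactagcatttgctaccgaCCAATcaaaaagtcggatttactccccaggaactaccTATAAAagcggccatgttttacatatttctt
H2BC13/H2AC13, H3K27ac in neither library, chr6:27807930-27808172: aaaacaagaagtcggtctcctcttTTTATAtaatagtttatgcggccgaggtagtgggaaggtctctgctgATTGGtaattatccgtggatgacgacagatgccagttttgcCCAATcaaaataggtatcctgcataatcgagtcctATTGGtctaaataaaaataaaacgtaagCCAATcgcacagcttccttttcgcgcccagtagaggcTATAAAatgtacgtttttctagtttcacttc
H2AC14/H2BC14, H3K27ac in neither library, chr6:27814778-27815021: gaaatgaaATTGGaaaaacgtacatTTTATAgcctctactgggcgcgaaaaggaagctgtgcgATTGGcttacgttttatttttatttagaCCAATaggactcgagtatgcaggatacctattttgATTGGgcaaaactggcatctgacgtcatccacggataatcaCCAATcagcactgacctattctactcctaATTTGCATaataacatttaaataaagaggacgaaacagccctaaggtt

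For H1, the 150 bases before the start are given in the direction of transcription for a gene with H3K27ac in both libraries, a gene with it in shCon only and a gene with it in neither. All 3 lie on the minus strand. Capitals mark the H1 box (AAACACA), the CCAAT box and the TATA box. The H1-1 box lay outside the stretch shown.
H1-2, H3K27ac in both libraries, chr6:26056471-26056620: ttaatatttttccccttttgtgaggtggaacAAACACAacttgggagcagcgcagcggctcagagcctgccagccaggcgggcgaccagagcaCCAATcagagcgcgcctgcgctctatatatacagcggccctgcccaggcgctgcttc
H1-1, H3K27ac in shCon only, chr6:26017788-26017937: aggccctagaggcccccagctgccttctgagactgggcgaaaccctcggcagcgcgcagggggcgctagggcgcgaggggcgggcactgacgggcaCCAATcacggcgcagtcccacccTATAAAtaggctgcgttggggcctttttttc
H1-6, H3K27ac in neither library, chr6:26108136-26108285: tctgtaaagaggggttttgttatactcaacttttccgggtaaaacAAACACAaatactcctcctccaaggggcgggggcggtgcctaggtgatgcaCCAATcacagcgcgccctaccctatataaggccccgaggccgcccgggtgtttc

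For H4, the same length is given for 1 gene with H3K27ac in both libraries and 1 with none, again both on the minus strand. Capitals mark the letters GGTCCG, searched as the core of the H4-specific promoter element, and the TATA box.
H4C8, H3K27ac in both libraries, chr6:26285535-26285684: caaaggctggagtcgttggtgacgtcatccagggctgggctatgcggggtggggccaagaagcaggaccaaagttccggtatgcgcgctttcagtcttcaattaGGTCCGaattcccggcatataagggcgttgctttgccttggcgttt
H4C4, H3K27ac in neither library, chr6:26189113-26189262: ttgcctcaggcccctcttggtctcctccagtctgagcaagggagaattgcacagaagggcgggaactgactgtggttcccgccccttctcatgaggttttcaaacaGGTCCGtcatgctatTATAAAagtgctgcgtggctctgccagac

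The promoter letters went with histone type. The H1 box was found in 6 of 6 H1 promoters and in none of the other 41, and GGTCCG in 9 of 9 H4 promoters and in 1 of the other 38, a promoter of an H3 gene. Among all 34961 promoters of the table of the same 300 bases, 5.65% held the H1 box and 11.3% held GGTCCG. The octamer was found in 11 of 14 H2B and 8 of 10 H2A promoters, against 1.77% of all promoters, and the windows of divergent mates overlap, so that 1 octamer can count for both. It was present in 1 of 8 H3 promoters and in 0 of the H1 and H4 promoters. The H3 gene was H3C4, whose second annotated start is also the start of H2AC7, so the H2AC7 octamer counts for it too. Over all types the octamer was present in promoters of 16 of 29 members with H3K27ac in at least 1 library and of 4 of 18 without. These 29 include H1-5 and H2BC9, whose starts no peak covered. The counts were 8 of 9 and 3 of 5 for H2B, and 7 of 7 and 1 of 3 for H2A. The pairs H2BC11/H2AC11 and H2BC4/H2AC6 each held an octamer, as did H2AC14/H2BC14, a pair with no called peak, whereas H2BC13/H2AC13 held none. A TATA box was found in 20 of 29 promoters of members with H3K27ac in at least 1 library and 11 of 18 of the others, and a CCAAT box in 26 of 29 and 15 of 18, against 11.5% and 34.6% of all promoters. A match of letters is a description of these windows and does not show that a factor binds there.

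Base composition differed little between members with H3K27ac in at least 1 library and the others when histone types were pooled, and differed in both directions within types. The median GC content of the 300-base windows was 42.0% for the 29 members with H3K27ac and 42.8% for the 18 others, and both were lower than the 58.7% of all promoters. The median number of CpG dinucleotides was 9 in members with H3K27ac and 11 in the others, against 14 in all promoters. Within H1, the median GC content was 53.8% in promoters of the 4 genes with H3K27ac in at least 1 library. It was 45.5% in those of the 2 genes without, and the values did not overlap. The 4 genes include H1-5, whose start no peak covered. The median CpG number was 16 with H3K27ac and 11.5 without it for H1, 16 and 10 for H4, and 8 and 13 for H2A. No test was made on these windows.

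The first question was which histone genes carry H3K27ac, and whether the knockdown cells differ from the control cells in this. A gene was counted as marked where a peak overlapped the gene record or the 1 kb on either side by at least 1 base. In shSMARCB1 cells 30 of 52 genes were marked (57.7%), and in shCon cells 33 were (63.5%). The same 30 were marked in both libraries, 0 in shSMARCB1 only, 3 in shCon only (H1-1, H1-5 and H3C12) and 19 in neither.

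Over all protein-coding genes 69.7% were marked in shSMARCB1 and 70.9% in shCon, but most of those genes are far longer than a histone gene and offer more room for a peak. Among the 1212 protein-coding genes with a record of at most 2 kb, which include 47 of the histone genes, 25.1% were marked in shSMARCB1 and 26.4% in shCon. The 47 short histone genes had shares of 53.2% in shSMARCB1 and 59.6% in shCon. The other 5, H2BC4, H2BC5, H2BC12, H3C4 and H3C6, have longer records and were marked in both libraries.

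Genes marked in shCon only made up 2.26% of all protein-coding genes and 2.06% of the short ones, and genes marked in shSMARCB1 only made up 1.09% and 0.743%. Of the genes marked in shCon, the share that was also marked in shSMARCB1 was 90.9% for the histone genes (30 of 33), 92.2% for short genes (295 of 320) and 96.8% for all protein-coding genes (13596 of 14044). The 33 histone genes include the 5 with long records. Of the 28 short histone genes marked in shCon, 25 were also marked in shSMARCB1. The histone share was close to that of short genes. Neighbouring histone genes share peaks, so the 52 genes are not independent counts.

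**Figure D1:**
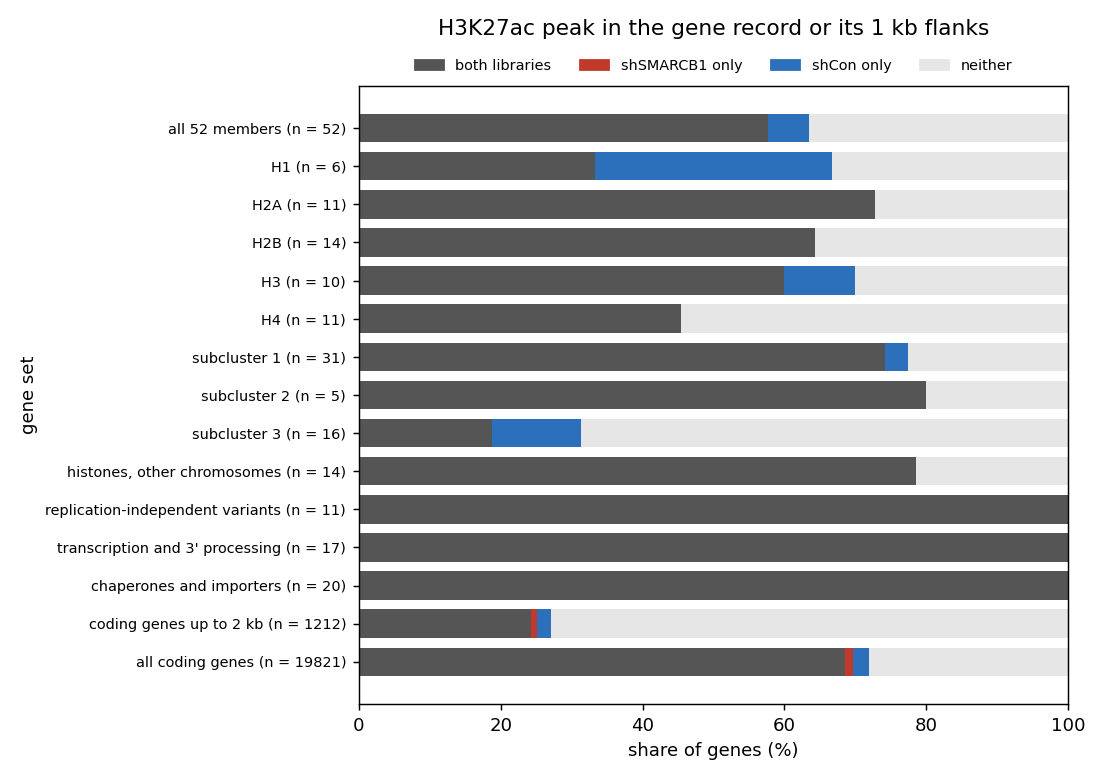
Share of genes (%, horizontal axis) with an H3K27ac peak in the gene record or its 1 kb flanks, by gene set (vertical axis), in both libraries, in shSMARCB1 only, in shCon only or in neither. Subcluster 3 has 11 of 16 genes in neither library, the H1 bar holds 2 shCon-only genes of 6, and every gene of the variant, processing and chaperone lists is marked in both.

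The genes fell into 3 subclusters, split where neighbours lay more than 250 kb apart. Subcluster 1 held 31 genes within 269 kb, from H1-1 to H4C8, subcluster 2 held 5 genes within 15.2 kb, from H2BC11 to H2AC12, and subcluster 3 held 16 genes within 86.4 kb, from H2BC13 to H2BC17. Gaps of 847 kb and 660 kb separated them. Marked genes were concentrated in subclusters 1 and 2. In subcluster 1, 23 of 31 genes were marked in shSMARCB1 and 24 in shCon, and in subcluster 2, 4 of 5 were marked in both. In subcluster 3, 3 of 16 were marked in shSMARCB1 and 5 in shCon.

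Of the 11 unmarked genes of subcluster 3, 9 lay in 1 long stretch without peaks and 2 in a shorter one. The 9 consecutive genes H2BC13, H2AC13, H3C10, H2AC14, H2BC14, H4C11, H4C12, H2AC15 and H2BC15 sat in a peak-free stretch of 71.0 kb in shSMARCB1 and 70.9 kb in shCon, and their nearest peaks were 13829 to 33126 bp away in shSMARCB1 and 13769 to 33057 bp away in shCon. H3C11 and H4C13, also of subcluster 3, shared a smaller stretch of 26.6 kb in shSMARCB1 and 24.3 kb in shCon. This stretch began inside the H2AC16 record in shSMARCB1 and past its end in shCon.

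The other 8 unmarked genes were scattered between marked neighbours in subclusters 1 and 2. H2BC6 and H4C4 shared a peak-free stretch of 33.3 kb in shSMARCB1 and 32.8 kb in shCon, H1-3 and H4C6 one of 24.1 and 23.1 kb, and H3C8 and H2BC10 one of 33.1 and 31.5 kb. H4C9 lay in a stretch of 9.14 kb in shSMARCB1 and 7.37 kb in shCon, inside the long record of the marked gene H2BC12. H1-6, the testis-specific linker histone, was the unmarked gene closest to a peak, at 1910 bp in shSMARCB1 and 1548 bp in shCon.

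The window of 1 kb decides a few of these calls. Just inside it, the peak that marked H2BC9 ended 668 bp from the gene in shSMARCB1 and 769 bp in shCon, and the shCon peak that marked H1-5 ended 419 bp away. Just outside it were the shSMARCB1 peaks nearest to H3C12 and H1-5, at 1166 and 1413 bp. With a window of 2.5 kb, 34 genes were marked in each library and none in 1 library only.

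By histone type, H4 genes were marked least often in shCon and H2A genes most often. The counts in shSMARCB1 and shCon were 8 and 8 of 11 for H2A, 9 and 9 of 14 for H2B, 6 and 7 of 10 for H3, 5 and 5 of 11 for H4, and 2 and 4 of 6 for H1. Type and position were not independent of each other. All 4 H2A genes of subcluster 1 were marked in both libraries, against 2 of 5 in subcluster 3, and 5 of 7 H4 genes of subcluster 1 were marked in both, against 0 of 3 in subcluster 3.

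Divergent H2A and H2B genes always had the same call. The start table placed 8 such pairs, with 193 to 247 bases between their starts. Both mates were marked in both libraries in 5 pairs (H2BC4/H2AC6, H2AC7/H2BC7, H2BC8/H2AC8, H2BC11/H2AC11 and H2AC17/H2BC17) and in neither library in 3 (H2BC13/H2AC13, H2AC14/H2BC14 and H2AC15/H2BC15). Mates lie closer together than the 1 kb flanks reach, so a peak at their promoter marks both by construction. H2AC12, which has no start entry, lies beside H2BC12, and both were marked in both libraries.

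Some promoters of the unmarked genes share stretches of sequence. Of the 251 runs of 50 bases in each promoter window, 44 in the H2BC13 and H2AC13 windows also occurred in those of H2AC14 and H2BC14, and 94 in the H4C11 window occurred in that of H4C12. None of the other 41 members with a start entry shared such a run with a promoter elsewhere in the table, so 6 of 18 unmarked and 0 of 29 marked members with an entry shared one. How reads that match more than 1 place were handled is not stated in the labels or headers, and its part in the missing peaks was not tested. The gene bodies were not compared.

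**Figure D2:**
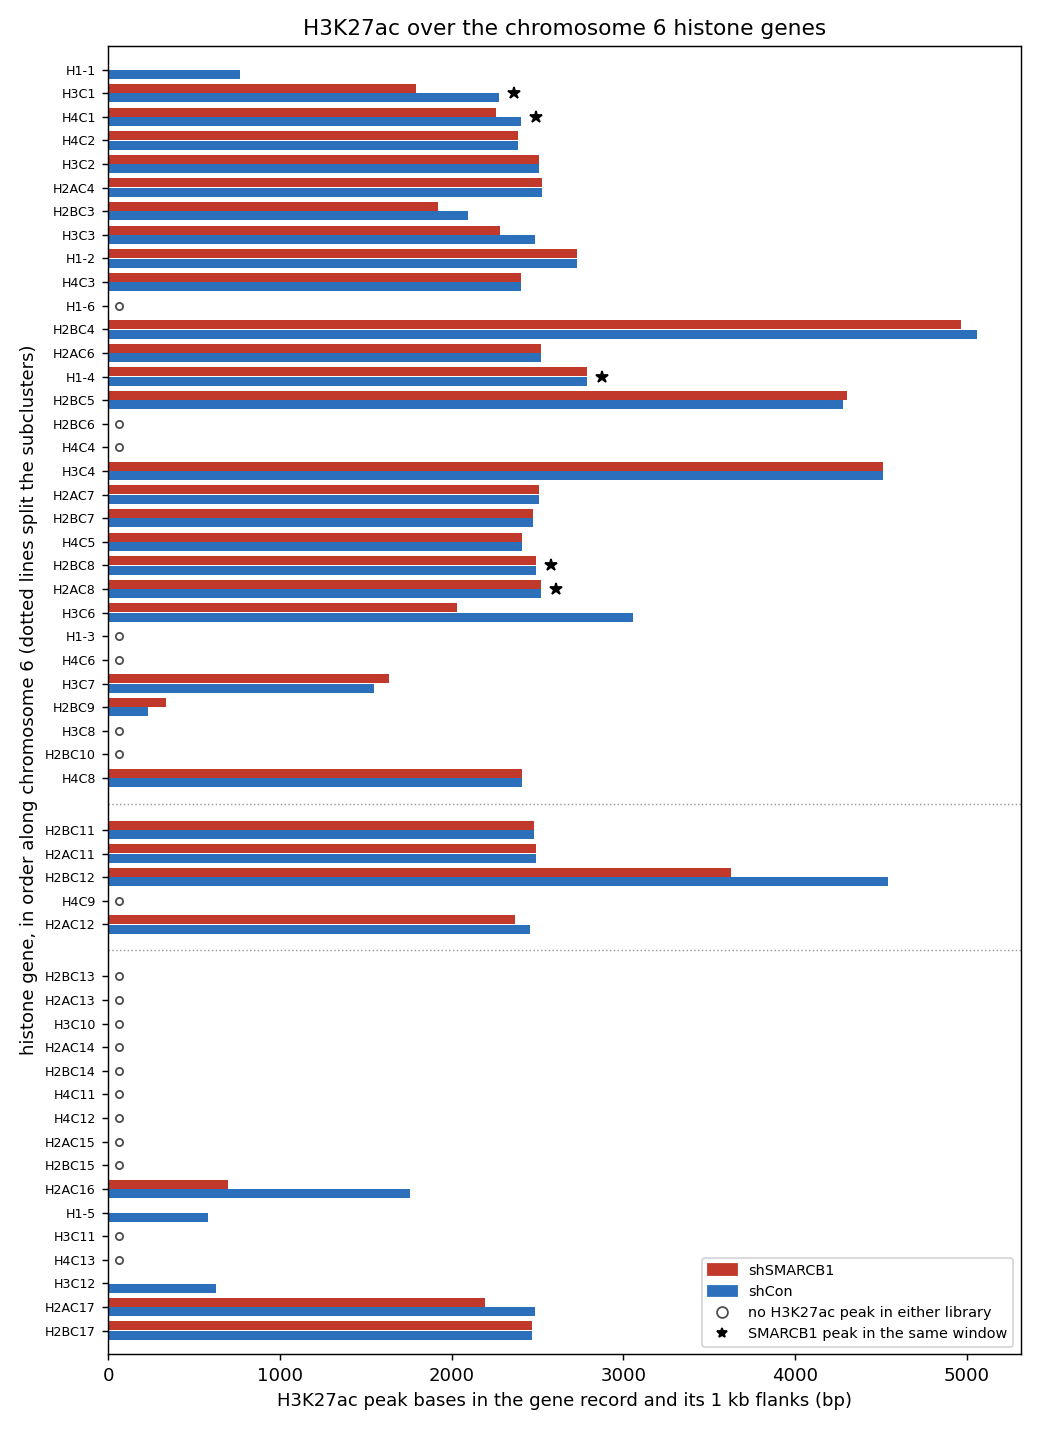
Bases of each gene record and its 1 kb flanks covered by H3K27ac peaks (bp, horizontal axis), for the 52 histone genes in order along chromosome 6, with shSMARCB1 above shCon. Open circles mark the 19 genes with no peak in either library, which include 9 in a row in subcluster 3, and stars mark the 5 genes with a SMARCB1 peak.

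Where a histone gene was marked, the acetylated region usually covered all of it. Among the 30 genes marked in both libraries, the whole window was covered for 17 in shSMARCB1 and 20 in shCon (56.7% and 66.7%). Among the 295 short protein-coding genes marked in both, this held for 19% in shSMARCB1 and 24.7% in shCon. The 30 histone genes include the 5 with long records, so the sets are not matched for length. The covered length was shorter in shSMARCB1 for 10 of the 30 genes, longer for 3 and equal for 17. Over all 13596 protein-coding genes marked in both it was shorter for 9955, longer for 3484 and equal for 157. Among the 295 short genes it was shorter for 187, longer for 51 and equal for 57. The many equal values among histone genes go with windows that are full in both libraries.

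The peaks over histone genes were wide. The 17 shSMARCB1 peaks had a median width of 4583 bp, against 1601 bp for that whole list, and the 19 shCon peaks had a median of 5145 bp, against 1707 bp. Of these peaks, 10 of 17 in shSMARCB1 and 12 of 19 in shCon were in the widest 10% of their list. The widest spanned 4 genes in shCon, H3C4, H2AC7, H2BC7 and H4C5, with 12884 bp. In shSMARCB1 the same region was called as a peak of 8077 bp and one of 3559 bp, with 596 bp between them, and H4C5 alone lay under the second.

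Most marked genes had the mark over the start site itself. Of the marked genes with a start entry, the start was inside a peak for 26 of 27 in shSMARCB1 and 27 of 29 in shCon, and H2BC9 was the exception in both libraries, with H1-5 the other in shCon. Around the covered starts the peaks reached a median of 2954 bp upstream and 2672 bp downstream in shSMARCB1, and 3516 bp upstream and 3047 bp downstream in shCon. The reach differed widely among genes, from 283 to 7816 bp upstream in shSMARCB1 and from 202 to 10371 bp in shCon. Peaks that cover several genes count at each of them.

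**Figure D3:**
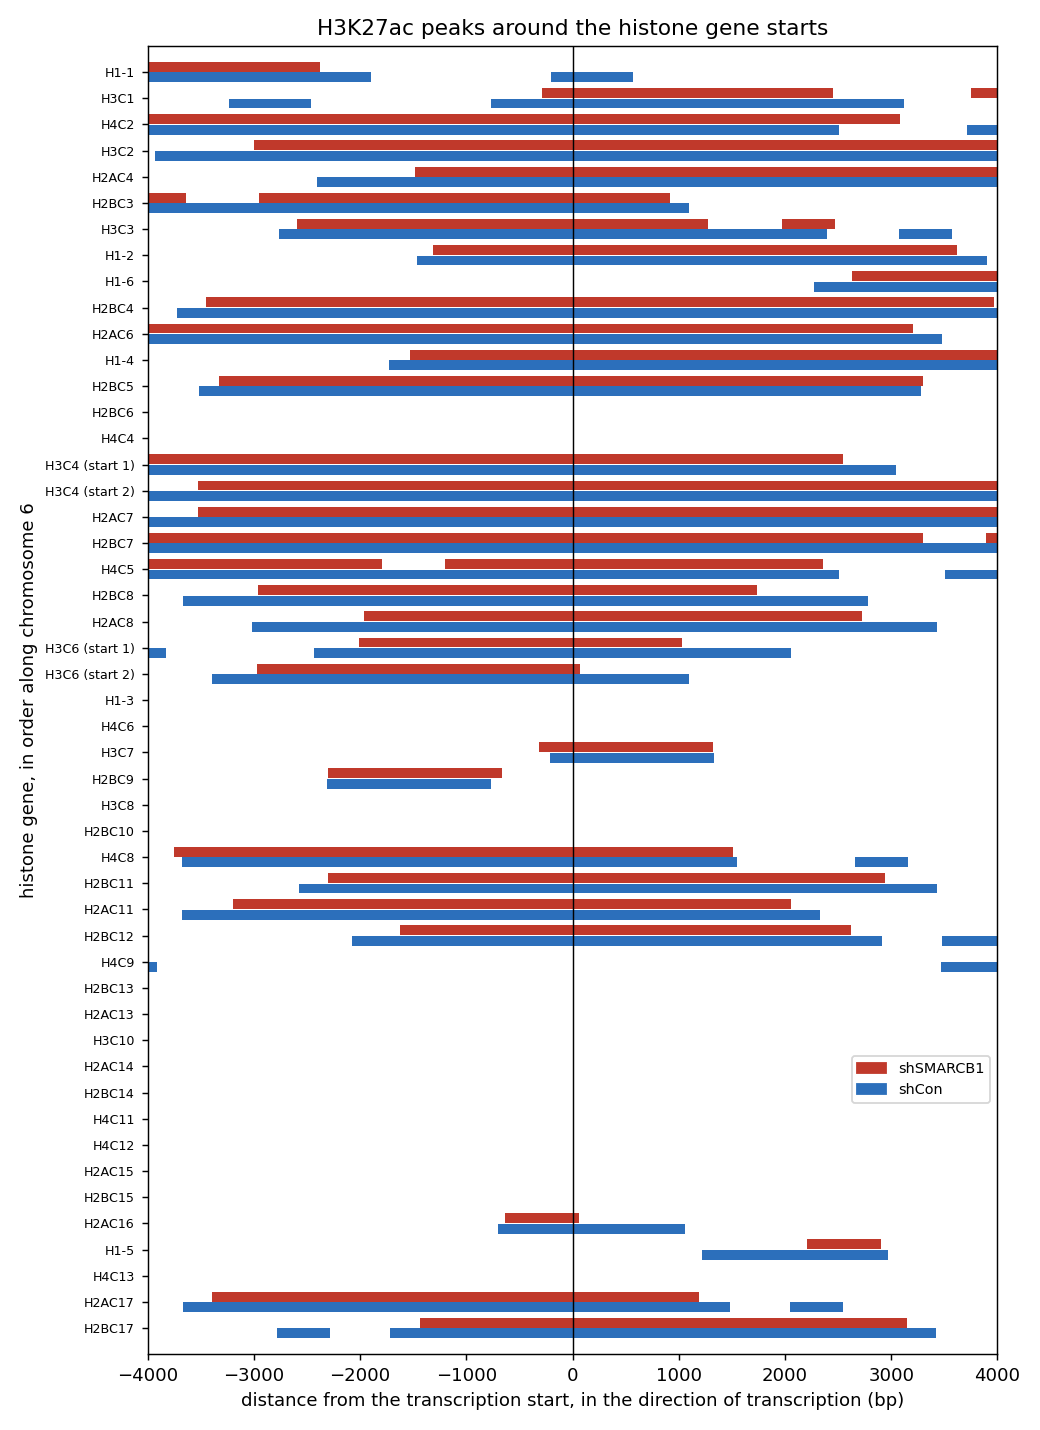
H3K27ac peaks within 4 kb of each annotated start (bp, horizontal axis, in the direction of transcription) for the 47 histone genes with a start entry, with shSMARCB1 above shCon. The peaks lie over the starts of most marked genes, stop before the start at H2BC9, and at H2AC16 end 62 bp after the start in shSMARCB1 and 1056 bp after it in shCon.

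The second question was how far the acetylated regions differed in extent. Summed over the windows of all 52 genes, with overlaps counted once, peaks covered 57973 bp in shSMARCB1 and 63607 bp in shCon, a ratio of 0.911. The same ratio was 0.888 over all protein-coding genes, 0.913 over short genes and 0.892 over the whole lists. Pooled, the histone genes were close to the rest of the genome in this ratio, but the ratio differed among them. It was 0.944 in subcluster 1, 0.882 in subcluster 2 and 0.660 in subcluster 3, where peaks covered 3594 bp in shSMARCB1 and 5446 bp in shCon. By type it was 0.803 for H1, 0.868 for H3, 0.925 for H2A, 0.960 for H2B and 0.988 for H4. Some of these ratios rest on few peaks. The H1 difference came from H1-1 and H1-5 alone, with 768 and 582 bp in shCon and 0 bp in shSMARCB1. The H1-5 bases belong to the peak over H2AC16. That peak, with a difference of -1063 bp (shSMARCB1 minus shCon), also enters the H2A and subcluster 3 ratios. A window that is full in both libraries adds the same bases to each sum, so these ratios do not show differences beyond the windows. The shSMARCB1 library also had fewer tags, and the part of sequencing depth in the shorter covered length was not tested.

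Counted as linked regions, where a peak of 1 library overlaps a peak of the other, 16 regions over histone genes were present in both libraries. Their median ratio of shSMARCB1 over shCon peak bases was 0.882, with a range of 0.395 to 1.05, and 14 of 16 were shorter in shSMARCB1 (87.5%). Among 18740 regions of the genome in the same range of shCon width, the median ratio was 0.900 and 76.9% were shorter in shSMARCB1. The sums were 81011 bp in shSMARCB1 and 92787 bp in shCon.

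The smallest ratio was at the region that marks H2AC16 and, in shCon, H1-5. It spanned 694 bp in shSMARCB1 and 1757 bp in shCon. The regions over H3C6 (3044 bp in shSMARCB1 and 4487 bp in shCon), H3C1 and H4C1 (2736 and 3884 bp), H2BC8 and H2AC8 (4691 and 6445 bp) and H4C3 (2983 and 4081 bp) had ratios from 0.678 to 0.731. All 5 of these ratios lay under the lower quartile of regions of like width, 0.789. They were picked as the lowest of the 16 regions, and part of any set of regions lies under its lower quartile by definition. The 5 regions are therefore not shown to be unusual.

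The regions over H4C8 and over H3C7 and H2BC9 were the exceptions that were longer in shSMARCB1. H4C8 had 5264 bp in shSMARCB1 and 5223 bp in shCon, and H3C7 and H2BC9 had 1632 bp in shSMARCB1 and 1547 bp in shCon. These differences of 41 and 85 bp are small beside the peak size of 500 bp that the caller started from. Some of the regions shorter in shSMARCB1 also differed by less than 500 bp. The differences (shSMARCB1 minus shCon) were -165 bp over H1-4 and H2BC5 and -346 bp over H4C2, H3C2 and H2AC4. They were -360 bp over H2BC4 and H2AC6 and -429 bp over H1-2.

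**Figure D4:**
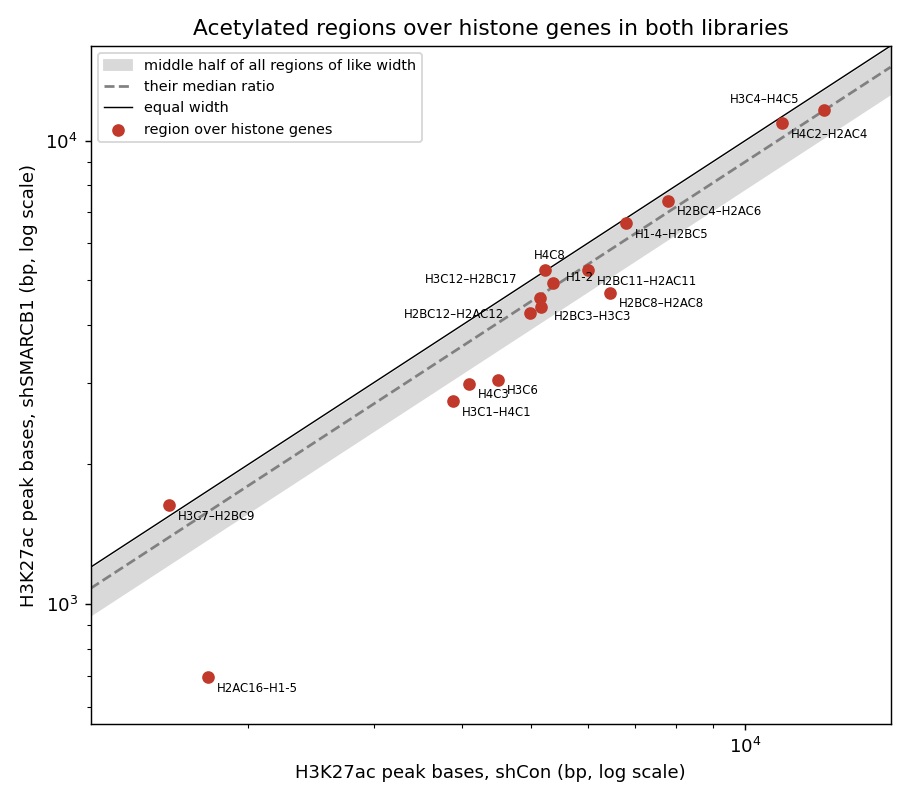
H3K27ac peak bases in shSMARCB1 (bp, log scale, vertical axis) against shCon (bp, log scale, horizontal axis) for the 16 linked regions over histone genes, each labelled by its first and last gene. The grey band spans the lower to the upper quartile, 0.789 to 0.991, of the ratio over 18740 regions of like shCon width; 14 of 16 points lie below the line of equal width, and H2AC16 to H1-5 lies lowest at 0.395.

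Among linker histones, the genes for the somatic H1 variants divided into 3 states. H1-2 had 2731 bp covered in both libraries and H1-4 had 2787 bp in both, the whole window in each case. H1-1 had 0 bp in shSMARCB1 and 768 bp in shCon, from a single peak over its start that had no shSMARCB1 counterpart. H1-5 had 0 bp in shSMARCB1 and 582 bp in shCon, but its peak is the one shared with H2AC16, which was found in both libraries and ended farther from H1-5 in shSMARCB1. H1-3, another somatic variant, and H1-6 had 0 bp in both. Only 20.8% of the peaks of the shCon list were narrower than the H1-1 peak.

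Among H2A genes, the values were full or nearly so in subclusters 1 and 2. H2AC4 had 2527 bp covered in both libraries and H2AC6 had 2519 bp in both, and the whole window of H2AC8 was covered in both. The largest differences were in subcluster 3, where H2AC16 had 694 bp in shSMARCB1 and 1757 bp in shCon, and H2AC17 had 2194 bp in shSMARCB1 and 2482 bp in shCon. H2AC13, H2AC14 and H2AC15 had 0 bp in both. H2A genes of subcluster 3 thus included both the unmarked H2A genes and the largest difference.

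Among H2B genes, the largest lengths belonged to genes with long records. H2BC4 had 4968 bp in shSMARCB1 and 5060 bp in shCon, and H2BC12 had 3625 bp in shSMARCB1 and 4541 bp in shCon. The H2BC12 difference of -916 bp (shSMARCB1 minus shCon) included a shCon peak of 628 bp inside its record that had no counterpart. H2BC3 had 1922 bp in shSMARCB1 and 2094 bp in shCon. Longer in shSMARCB1 were H2BC9, with 333 bp against 232 bp in shCon, and H2BC5, with 4303 bp against 4278 bp in shCon. H2BC6, H2BC10, H2BC13, H2BC14 and H2BC15 had 0 bp in both.

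Among H3 genes, H3C4 had 4510 bp in both libraries, in a record that also contains H2AC7. H3C6 had 2030 bp in shSMARCB1 and 3054 bp in shCon, and the peak ended 72 bp past its second annotated start in shSMARCB1 and 1096 bp past it in shCon. H3C1 had 1791 bp in shSMARCB1 and 2273 bp in shCon. H3C7 had 1632 bp in shSMARCB1 and 1547 bp in shCon. H3C12 had 0 bp in shSMARCB1 and 624 bp in shCon, from a shCon peak of 501 bp without a counterpart and from the edge of the region over H2AC17 and H2BC17, which was present in both libraries. H3C8, H3C10 and H3C11 had 0 bp in both.

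Among H4 genes, the bases covered within the window differed little at the marked ones. A window that is full in both libraries cannot show a difference beyond its edges, and some of the whole regions differed more. The region over H4C3 had a ratio of 0.731 and that over H3C1 and H4C1 one of 0.704. The regions that include H4C5, H4C2 and H4C8 had ratios of 0.903, 0.969 and 1.01. H4C2, H4C3, H4C5 and H4C8 had their whole windows covered in both libraries, with 2412 bp at H4C5 and 2409 bp at H4C8, and H4C1 had 2255 bp in shSMARCB1 and 2402 bp in shCon. H4C4, H4C6, H4C9, H4C11, H4C12 and H4C13 had 0 bp in both. H4C7, a further H4 gene of the interval that is not among the 52, was also marked in neither.

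Counted once each, 0 of the 17 shSMARCB1 peaks over histone genes lacked a shCon counterpart, and 3 of the 19 shCon peaks lacked a shSMARCB1 counterpart. The 3 were the peaks of 768 bp at H1-1, of 628 bp in the H2BC12 record and of 501 bp at H3C12, and all were narrower than the median of the shCon list. The peak at H1-1 covered the annotated start of that gene, the peak in the H2BC12 record covered none, and H3C12 has no start entry.

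SMARCB1 peaks were found at 5 of the 52 histone genes (9.62%), H3C1, H4C1, H1-4, H2BC8 and H2AC8, from 3 distinct peaks. All 5 have short records, and they made up 10.6% of the 47 short histone genes, against 6.27% of short protein-coding genes and 17.7% of all protein-coding genes. All 5 belong to subcluster 1 and were marked by H3K27ac in both libraries, and all 3 SMARCB1 peaks overlapped an H3K27ac peak of each library. Of the 30 histone genes marked in both libraries, 16.7% had a SMARCB1 peak, against 24.4% of such short genes and 24.8% of all such genes. Those 30 include 25 with short records, and all 5 genes with a SMARCB1 peak were among the 25. None of the 19 genes marked in neither had one, against 0.227% of such short genes and 1.74% of all such protein-coding genes, so 0 of 19 is near both background shares.

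Each of the 3 SMARCB1 peaks was 500 bp wide. The authors gave the peak at H1-4, at chr6:26156409-26156908, the number 12.7 and the class exon, and it lay wholly inside the H1-4 record. The peak at H4C1 and H3C1, at chr6:26021890-26022389, had the number 9.51 and the class TTS, and it overlapped the H4C1 record by 161 bp and the H3C1 record by none. The peak at H2BC8 and H2AC8, at chr6:26216043-26216542, had the number 8.98 and the class promoter-TSS, and it overlapped the H2BC8 record by 343 bp. The unit of these numbers is not stated, and they ranked 1724, 3333 and 3935 of 4453, so the peak at H1-4 lay above the list's median of 11.6 and the other two lay below it. The regions over H3C1 and H4C1 and over H2BC8 and H2AC8 were among the 5 with the lower ratios named above, with 0.704 and 0.728, and the region over H1-4 and H2BC5 had 0.976.

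Between the outermost histone genes, H3K27ac peaks covered 10.2% of the sequence in shSMARCB1 and 12.5% in shCon. The interval also holds 16 other protein-coding genes, among them HFE, the butyrophilin genes and several zinc finger genes. Of these, 11 were marked in both libraries, 0 in shSMARCB1 only, 1 in shCon only (PRSS16, a serine protease) and 4 in neither. The 4 include H4C7, a histone gene outside the list of members. None had a SMARCB1 peak. Over all protein-coding genes, 69.7% were marked in shSMARCB1 and 70.9% in shCon, and 17.7% had a SMARCB1 peak.

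Histone genes elsewhere and the genes that serve them were marked in both libraries in most cases. Of 14 replication-dependent histone genes on other chromosomes, 11 were marked in both and 3, H4C14, H3C14 and H3C15, in neither. H2AC25 and H2BC26, a divergent pair on chromosome 1, had SMARCB1 peaks. All 11 replication-independent variants were marked in both, including H3-3A and H3-3B, which encode the H3.3 used outside S phase, and none had a SMARCB1 peak. All 17 genes of histone gene transcription and mRNA 3′ processing were marked in both, including NPAT, CASP8AP2, SLBP and LSM11, as were all 20 histone chaperones and importers, including CHAF1A, ASF1B and NASP. SMARCB1 peaks lay at 2 of these 17 and 6 of these 20, against 24.8% of all protein-coding genes marked in both libraries. Over all protein-coding genes, 69.7% were marked in shSMARCB1 and 70.9% in shCon. The variant, processing and chaperone genes are mostly longer than histone genes, so their shares are not matched for the room a peak has.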

How the data were processed

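The deposited files are peak lists of 1 library each, and the score of each SMARCB1 peak is the authors' own, with no stated unit. Per the file headers, HOMER's histone style made both H3K27ac lists against the control cells' input, starting from peaks of 500 bp, requiring 4-fold enrichment over input and stitching peaks into regions. The submitters' processing notes also name Bowtie2 and the build hg38, without versions. How the SMARCB1 list was called is not stated. The input library was not analysed here. The H3K27ac lists carry no varying value per peak, so position and width were the only measures, and a shallower library can yield shorter regions.

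Genes and promoters came from RefSeq (GRCh38.p14, with the main chromosomes of hg38), after leaving out 153 records of alternate or unplaced sequences. Overlaps were computed with Python 3.11.15, NumPy 2.4.6 and pandas 2.3.3, and checked against bedtools 2.31.1 with the same genes found, and on 2000 simulated windows. Figures used matplotlib 3.10.9. Every gene is accounted for by its calls. Named with values were genes marked in 1 library or neither, genes with a SMARCB1 peak, and per histone type the 2 genes with the most shCon length and the 2 with the largest difference per direction. The 52 genes were listed by family and position, but this family, the other lists and the tests were chosen with earlier results of these data known. Alternatives covered the window, the overlap, peak width, merging and the SMARCB1 class.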

Additional observations from a re-analysis of the deposited data

How the results depend on the processing

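The H3K27ac calls at single histone genes depended on the window and on peak width, and the SMARCB1 calls also on the peak's value and class. The number of genes marked in shSMARCB1 stayed between 27 and 34 and that in shCon between 28 and 34 over all alternatives run. Genes marked in shCon only, 3 as reported, numbered 0 with a window of 2.5 kb and 1 (H1-1) within 1 kb of a start, where 47 genes have an entry. With the wider 50% of each list, H3C7 and H2BC9 became the 2 genes marked in shSMARCB1 only, since a shared peak passed the width limit in 1 list. Genes with a SMARCB1 peak numbered 3 with the gene record alone, 3 within 1 kb of a start, 2 with the promoter-TSS class alone and 1 with the 50% of peaks of higher value. The ratio of summed length was 0.885 with the record alone, 0.909 with 500 bases, 0.866 with 2.5 kb, 0.928 with peaks of at least 1 kb, 0.952 with the wider 50% and 0.899 with merged peaks. Among peaks of at least 1 kb, 1 shCon peak had no counterpart. None of the 3 reported is that wide, and the 1 is the peak of 1757 bp at H2AC16 and H1-5, whose shSMARCB1 counterpart of 694 bp was removed by this limit. With this limit, as with the wider 50%, H2AC16 took the place of H1-1 among the genes marked in shCon only. The share of protein-coding genes marked was 25.1% in shSMARCB1 and 26.4% in shCon for short genes, against 69.7% and 70.9% for all. No paired analysis was possible because each group has 1 library. Depth, which differed between the H3K27ac libraries, limits what the absence of a narrow peak can show.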
